A study of Mus musculus with 6 samples.

Results

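The genes described here are 10 components of the enzymatic defence against peroxides and superoxide: the glutathione peroxidases Gpx1 and Gpx4, the peroxiredoxins Prdx1, Prdx2, Prdx3 and Prdx5, thioredoxin (Txn1) and its inhibitor Txnip, catalase (Cat) and the mitochondrial superoxide dismutase Sod2. They were chosen by symbol from the 30733 gene names of the deposited tables, all 10 were found, and all 10 passed the filter on low values. RNA was sequenced from bone marrow cells labelled as hematopoietic stem cells (HSCs), the cells that replenish all blood lineages, taken from wild-type mice aged 12 months. A sort on surface MHC class II, the antigen-presenting complex, gave a fraction with high MHCII (MHCII_hi in the labels) and a fraction with low MHCII (MHCII_lo), each with 3 libraries. Both groups share genotype, age and tissue and carry no transgene or treatment in the labels, and the sources used here do not give the sort markers, the animals behind each library or the strain. Whether the 3 libraries of a fraction are separate mice is not stated. The p-values therefore set the difference between fractions only against the spread among these libraries, and that spread may be technical.

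Hydrogen peroxide arises when superoxide dismutases convert superoxide and when oxidases act, and cells remove it by separate routes. Glutathione peroxidases spend glutathione, peroxiredoxins spend reduced thioredoxin, and catalase splits peroxide in peroxisomes without a reductant. Glutathione and thioredoxin are recharged with NADPH, much of it from the pentose phosphate pathway. In mouse marrow, stem cells are known for low oxidant levels and for their sensitivity to loss of such defences, red cells are known for abundant peroxiredoxin 2, catalase and glutathione peroxidase 1, and neutrophils make oxidants with an NADPH oxidase.

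The cell identity behind the labels was checked with marker lists. Of 10 stem cell genes, 5 stayed under 1 FPKM (a level per transcript length and per library total) in all 6 libraries, namely the defining genes Procr, Slamf1, Mecom, Fgd5 and Hoxb5, while Kit stood at 14.3 ± 0.175 (SD, n = 3) in MHCII_lo and 13.9 ± 0.318 FPKM in MHCII_hi. The 10 together took 0.00813 to 0.00905% of summed FPKM in MHCII_lo and 0.00853 to 0.00946% in MHCII_hi. Of 12 neutrophil markers, all 12 were higher in MHCII_hi, none was at 0, and together they took 2.79 to 2.82% of summed FPKM in MHCII_lo and 15.56 to 15.65% in MHCII_hi. Red cell markers took 0.169 to 0.172% and 0.0975 to 0.102%, with 11 of 12 lower in MHCII_hi and none at 0. Mast cell, basophil and eosinophil markers took 1.51 to 1.54% and 0.608 to 0.616%, with 9 of 10 lower, monocyte and dendritic cell markers 0.211 to 0.215% and 0.133 to 0.139%, with 8 of 9 tested lower (Siglech passed the filter only through MHCII_lo) and 1 higher, and B and plasma cell markers 0.0777 to 0.0785% and 0.0909 to 0.0929%, with 3 of 6 tested higher. These counts stand beside 20.4% called higher and 40.6% called lower over all 12037 tested genes (limma adjusted p under 0.05). In RNA from pooled cells, fewer cells of a type and less RNA per cell cannot be told apart, and the part of these other cells in the results below was not tested. The 4 class II genes that check the sort were all higher in MHCII_hi, for example H2-Eb1 at 6.30 ± 0.404 and 15.8 ± 0.786 FPKM. Summed FPKM per library ran from 327364 to 327945 in MHCII_lo and from 344421 to 346651 in MHCII_hi, and the read depth is unknown.

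**Figure D1:**
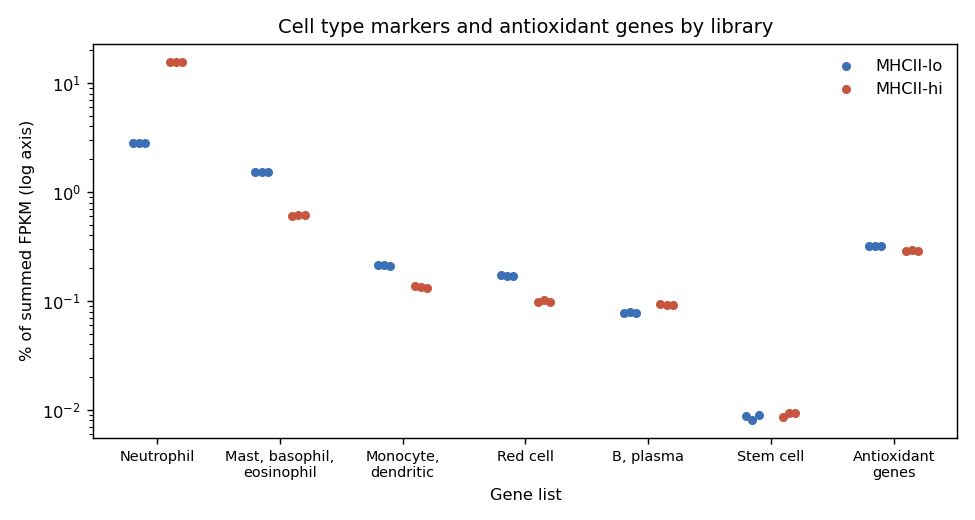
Percent of summed FPKM (log axis) taken by 6 cell type marker lists and by the 10 antioxidant genes, with 1 point per library. Neutrophil markers took 2.79 to 2.82% in MHCII_lo and 15.56 to 15.65% in MHCII_hi, while the antioxidant genes took 0.319 to 0.320% and 0.286 to 0.294%.

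The 2 fractions were compared to see how expression differs with surface MHCII. Of the 10 antioxidant genes, 3 were higher in MHCII_hi (Prdx5, Txn1 and Txnip) and 7 were lower (Prdx2, Prdx1, Prdx3, Sod2, Gpx4, Cat and Gpx1). Changes ran from 1.76-fold lower for Prdx2 to 1.47-fold higher for Prdx5. All 10 passed limma at an adjusted p under 0.05, where 60.9% of all 12037 tested genes did. The 3 of 10 called higher stand beside 20.4% of tested genes, and the 7 of 10 called lower beside 40.6%. In all 10 the 3 libraries of the fractions did not overlap, which held for 67.6% of tested genes (22.6% with MHCII_hi higher and 45.0% with MHCII_hi lower). Among the 7228 tested genes with a mean between those of Sod2 and Gpx1, 70.6% were called. The median log2 fold change of the 10 genes was −0.36, beside −0.12 over all tested genes. Log2 fold changes are MHCII_hi minus MHCII_lo on the log2(FPKM + 1) scale, which understates changes of low genes. The balance of calls moved with scaling: 2450 genes were higher and 4883 lower as deposited, and 3392 and 3123 after median-ratio scaling, which moved the median of all genes to −0.01.

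The levels spanned a wide range within each fraction. In MHCII_lo the order in FPKM, from highest to lowest, was Gpx1, Txn1, Prdx5, Prdx1, Gpx4, Prdx3, Txnip, Prdx2, Cat and Sod2, and the libraries of neighbours in this order did not overlap. In MHCII_hi the order was Gpx1, Txn1, Prdx5, Prdx1, Gpx4, Txnip, Prdx3, Cat, Prdx2 and Sod2. There Prdx1 overlapped with Gpx4, Gpx4 with Txnip, and Cat with Prdx2. Txnip thus stood above Prdx3 and Cat beside Prdx2 in MHCII_hi, while in MHCII_lo Prdx3 was above Txnip and Prdx2 above Cat.

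**Figure D2:**
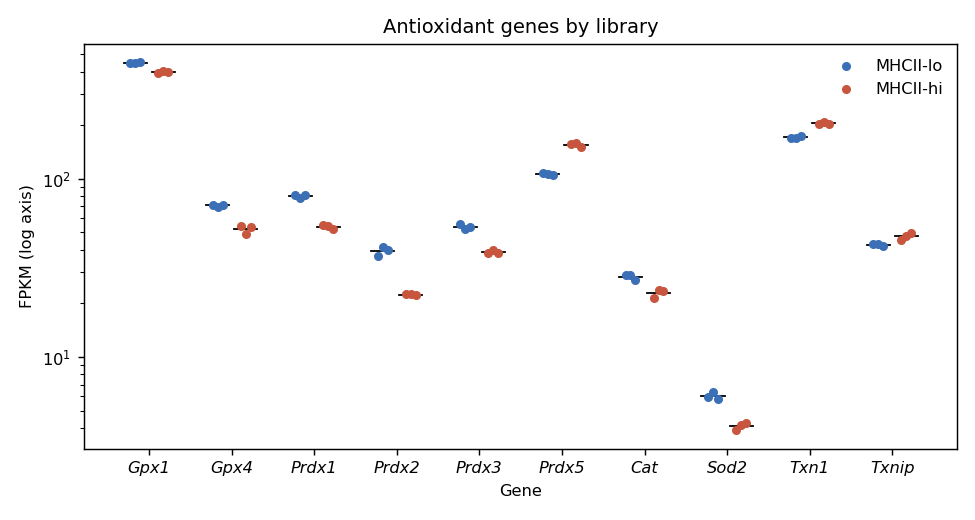
FPKM (log axis) of the 10 antioxidant genes in each of 3 MHCII_lo and 3 MHCII_hi libraries, with a bar at the group mean. Prdx5, Txn1 and Txnip were higher in all MHCII_hi libraries than in any MHCII_lo library, and the other 7 genes were lower.

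The glutathione peroxidases fell in MHCII_hi, Gpx4 by more than Gpx1. Both enzymes carry selenocysteine in the active site, placed by a TGA codon inside the reading frame. The coding sequence around that codon (GENCODE M21, GRCm38, both on the plus strand) is shown because it is what sets these transcripts apart from the other members, with the TGA in capitals. In Gpx1 it lies at chr9:108339451-108339453 and in Gpx4 at chr10:80054737-80054739, and 19 of the 30 bases shown are identical between the 2 genes.
Gpx1: aatgtcgcgtctctcTGAggcaccacgatc
Gpx4: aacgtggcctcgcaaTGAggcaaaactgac

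Gpx1, which reduces hydrogen peroxide in cytosol and mitochondria and was the most abundant of the 10 (chromosome 9, 108338903 to 108340343), stood at 444, 446 and 451 FPKM in the MHCII_lo libraries. The MHCII_hi libraries held 391, 402 and 395 FPKM. The fractions did not overlap, and the difference was small: log2 fold change −0.17 (SE 0.0166, limma adjusted p 0.000127). This call depended on scaling. It was lost after median-ratio scaling (log2 fold change −0.04, adjusted p 0.0676), with neutrophil markers left out of the total (−0.05, 0.0624) and after quantile normalization (0.00, 0.856). Red cell markers, whose lineage carries much Gpx1, were mostly lower in the same libraries, as were mast cell, basophil, eosinophil, monocyte and dendritic cell markers. The part of these transcripts in this difference was not tested.

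Gpx4, which reduces lipid hydroperoxides within membranes and guards cells against ferroptosis (chromosome 10, 80047166 to 80056439), stood at 71.2, 69.7 and 71.7 FPKM in MHCII_lo. In MHCII_hi it stood at 54.4, 49.0 and 53.9 FPKM. All MHCII_hi libraries lay below all MHCII_lo libraries (log2 fold change −0.43, SE 0.0422, adjusted p 0.000146), and the gene stayed lower under all 4 other scalings, with log2 fold changes of −0.51 to −0.30. A near-identical transcribed copy, Gpx4-ps2 (99.6% identity over 509 bases), was listed at 33.01 FPKM in MHCII_lo and 27.1 in MHCII_hi, so how reads were shared between them is uncertain. The sum of both was 104 ± 0.662 FPKM in MHCII_lo and 79.55 ± 3.15 in MHCII_hi, a ratio of 0.766 against 0.74 for Gpx4 alone.

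Peroxiredoxins went both ways: Prdx1, Prdx2 and Prdx3 were lower in MHCII_hi and Prdx5 was higher. The 250 bases before the start sites of Prdx2 and Prdx5, the genes with the greatest changes in each direction, and of Prdx1 are shown (RefSeq, GRCm38.p6). All member promoters in that table (13 windows, since Gpx4 has several starts) were searched on both strands for TGACNNNGC, the core of the element bound by the oxidant-responsive factor NRF2, and for the E-box CACGTG. Prdx1 held the first, as GCTGAGTCA beginning 133 bases before the start, in capitals below. The other 12 windows held neither motif. These RefSeq starts can differ from the GENCODE gene bounds used for positions here. The windows of Prdx1, Prdx2 and Gpx1, among others, reach into those bounds, and the Sod2 window lies within them. Among the 32851 promoters of the table, 10.2% held TGACNNNGC and 6.02% held CACGTG in this window. Such a match is a description of the letters and not of binding.
Prdx1, chr4:116685349-116685598, plus strand: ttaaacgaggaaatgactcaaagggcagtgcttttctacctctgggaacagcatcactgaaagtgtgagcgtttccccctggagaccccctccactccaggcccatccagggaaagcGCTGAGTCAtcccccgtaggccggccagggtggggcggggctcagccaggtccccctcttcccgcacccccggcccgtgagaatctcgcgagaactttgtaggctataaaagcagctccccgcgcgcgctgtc
Prdx2, chr8:84969372-84969621, plus strand: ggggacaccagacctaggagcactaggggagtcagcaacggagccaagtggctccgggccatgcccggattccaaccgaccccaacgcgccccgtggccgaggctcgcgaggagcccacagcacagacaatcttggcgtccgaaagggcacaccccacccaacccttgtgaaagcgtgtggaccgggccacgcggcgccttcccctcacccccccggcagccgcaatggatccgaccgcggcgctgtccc
Prdx5, chr19:6910107-6910356, minus strand: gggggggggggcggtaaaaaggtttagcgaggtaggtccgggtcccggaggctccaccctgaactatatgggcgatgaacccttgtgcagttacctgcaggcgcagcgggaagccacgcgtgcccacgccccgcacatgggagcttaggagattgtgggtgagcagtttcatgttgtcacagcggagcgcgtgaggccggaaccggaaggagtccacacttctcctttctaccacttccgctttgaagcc

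Prdx2, the cytosolic peroxiredoxin that is abundant in red cells, was the member that fell most. Its MHCII_lo libraries held 37.0, 41.4 and 39.9 FPKM and its MHCII_hi libraries 22.5, 22.4 and 22.15 FPKM. MHCII_hi libraries lay close together and all below MHCII_lo, with a log2 fold change of −0.79 (SE 0.0429, adjusted p 7.73e-06). The 12 red cell markers had a median log2 fold change of −0.63 in the same libraries. That median was −1.12 for mast cell, basophil and eosinophil markers and −0.77 for monocyte and dendritic cell markers. Klf1, the red cell transcription factor, stood at 10.1 ± 0.674 and 4.17 ± 0.294 FPKM, a log2 fold change of −1.10. Among the other red cell markers, Car2 fell more, at −1.18. The rest changed less than Klf1, such as Hbb-bs at −0.28, and Alas2 was not called (−0.10, limma adjusted p 0.362). The part of red cell or other marker transcripts in the fall of Prdx2 was not tested. The exons of Prdx2 share 177 bases with those of Rnaseh2a on the opposite strand, which stood at 11.1 FPKM in MHCII_lo and 7.24 in MHCII_hi. They also share 173 bases with Junb on the opposite strand, which stood at 191 and 229 FPKM, and whether the counting used strand is not stated.

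Prdx1, the other cytosolic peroxiredoxin (chromosome 4, 116685544 to 116700822), stood at 81.5, 78.2 and 80.9 FPKM in MHCII_lo. It stood at 55.1, 54.0 and 52.2 FPKM in MHCII_hi. The fractions did not overlap (log2 fold change −0.57, SE 0.0297, adjusted p 6.28e-06), and the sum with 2 near-identical copies listed in the tables gave a ratio of 0.674 against 0.671 for Prdx1 alone. Prdx3, the mitochondrial peroxiredoxin (chromosome 19, 60864051 to 60874556), held 55.8, 52.5 and 53.5 FPKM in MHCII_lo. Its MHCII_hi libraries held 38.3, 39.8 and 38.5 FPKM, all below MHCII_lo, at a log2 fold change of −0.46 (SE 0.0319, adjusted p 2.59e-05). Prdx1, Prdx2 and Prdx3 were lower under all 4 other scalings as well.

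Prdx5, a peroxiredoxin of mitochondria, peroxisomes and cytosol (chromosome 19, 6906697 to 6910106), moved the opposite way. The MHCII_lo libraries held 107, 106 and 105 FPKM and the MHCII_hi libraries 157, 159 and 150.5 FPKM. Every MHCII_hi library was above every MHCII_lo library, and the log2 fold change was 0.55 (SE 0.0255, adjusted p 3.47e-06), with 0.48 to 0.68 under the 4 other scalings. The gene shares 409 exon bases with Trmt112 on the opposite strand, which was listed at 27.0 FPKM in MHCII_lo and 16.2 in MHCII_hi. Neutrophil markers were higher in the same libraries, and their part in the rise of Prdx5 was not tested.

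Catalase and Sod2 were lower in MHCII_hi. Cat, the peroxisomal enzyme that splits hydrogen peroxide (chromosome 2, 103453849 to 103485160), stood at 28.8, 28.8 and 27.0 FPKM in MHCII_lo and at 21.4, 23.9 and 23.3 FPKM in MHCII_hi. Its libraries did not overlap (log2 fold change −0.29, SE 0.0481, adjusted p 0.00186). Sod2, the manganese enzyme that converts superoxide in mitochondria (chromosome 17, 13006846 to 13040063), had the lowest level of the 10. It held 5.94, 6.33 and 5.78 FPKM in MHCII_lo and 3.87, 4.15 and 4.25 FPKM in MHCII_hi, again without overlap (log2 fold change −0.46, SE 0.0528, adjusted p 0.000302). Both genes stayed lower under the 4 other scalings, but Cat moved to −0.16 after median-ratio scaling (limma adjusted p 0.0265) and to −0.17 with neutrophil markers left out of the total (0.0261). Sod2 was at −0.28 with a pseudocount of 5. Sod1, the copper and zinc enzyme of the cytosol and not a member, stood at 46.9, 48.8 and 46.8 FPKM in MHCII_lo and at 29.5, 29.9 and 30.4 FPKM in MHCII_hi (log2 fold change −0.65, SE 0.0288, adjusted p 2.78e-06). The log2 ratio of Sod2 to Sod1, which does not depend on library scaling, was −2.98 ± 0.0351 in MHCII_lo and −2.87 ± 0.0483 in MHCII_hi. The difference of 0.11 had a p of 0.1 in a two-sided exact permutation test, the smallest that 3 against 3 libraries allow, and it was 0.19 with a pseudocount of 1.

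Thioredoxin and its inhibitor were both higher in MHCII_hi. Txn1, the small protein that reduces peroxiredoxins and other oxidized proteins (chromosome 4, 57943373 to 57956411), stood at 170.5, 170.1 and 174 FPKM in MHCII_lo. The MHCII_hi libraries held 204, 208 and 204 FPKM, all above MHCII_lo (log2 fold change 0.26, SE 0.0188, adjusted p 3.22e-05). The call held under the 4 other scalings, with log2 fold changes of 0.19 to 0.39.

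Txnip, an arrestin-domain protein that binds reduced thioredoxin, limits glucose uptake and is needed for stem cell quiescence in mice (chromosome 3, 96557957 to 96561883), stood at 42.8, 43.3 and 42.2 FPKM in MHCII_lo. In MHCII_hi it stood at 45.3, 47.7 and 49.5 FPKM. The groups did not overlap, but the gap between the nearest libraries was smaller than the range within MHCII_hi (log2 fold change 0.15, SE 0.0357, adjusted p 0.0104). The call was lost when values were rescaled to the same total in every library (TPM; log2 fold change 0.07, adjusted p 0.124) and held under the other 3 scalings, at 0.28 after median-ratio scaling and 0.27 with neutrophil markers left out of the total. The log2 ratio of Txnip to Txn1 was −1.99, −1.98 and −2.04 in the MHCII_lo libraries and −2.17, −2.13 and −2.05 in the MHCII_hi libraries, all lower by a small margin. The difference of −0.11 had a p of 0.1 in a two-sided exact permutation test, again the smallest possible.

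**Figure D3:**
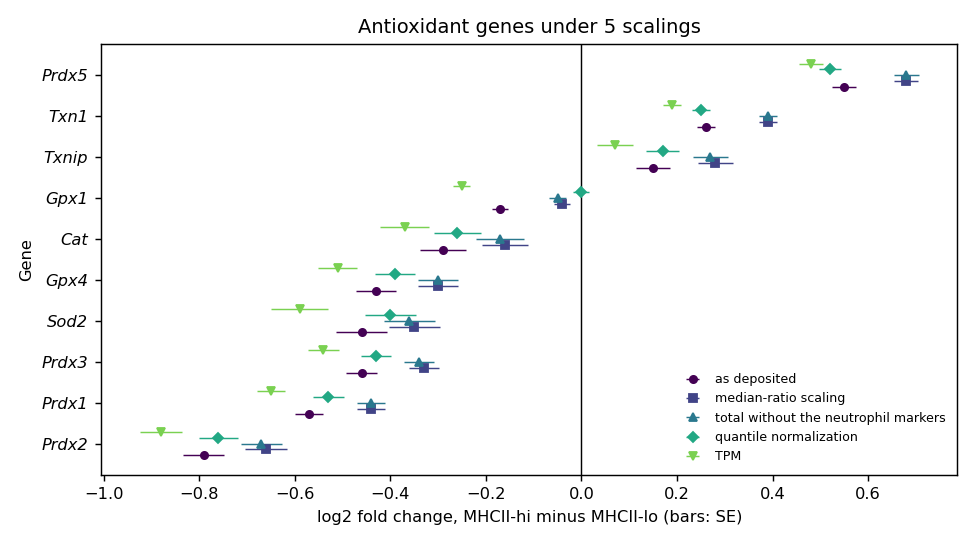
Log2 fold change (MHCII_hi minus MHCII_lo, bars SE) of the 10 antioxidant genes under the deposited scaling and 4 others. Gpx1 moved from −0.25 under TPM to 0.00 after quantile normalization, and the other 9 genes kept their sign under these scalings, with Prdx2 the most negative and Prdx5 the most positive.

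Read against all tested genes, the members' calls by scaling were as follows. After median-ratio scaling 9 of 10 passed (54.1% of tested genes), 3 higher (28.2%) and 6 lower (25.9%). With neutrophil markers left out of the total 9 passed (54.1%), 3 higher (27.9%) and 6 lower (26.2%). After quantile normalization 9 passed (56.8%), 3 higher (23.4%) and 6 lower (33.4%). Under TPM 9 passed (66.7%), 2 higher (16.9%) and 7 lower (49.8%).

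Combined, the 10 genes summed to 1046.0 ± 3.68 FPKM in MHCII_lo and 999 ± 10.3 in MHCII_hi. This was 0.319 ± 0.000873% and 0.289 ± 0.00373% of summed FPKM (two-sided exact permutation p 0.1, the smallest possible). With neutrophil markers left out of the total, the direction turned, at 0.328 ± 0.000862% in MHCII_lo and 0.343 ± 0.00425% in MHCII_hi (two-sided exact permutation p 0.1). The make-up of the sum differed between fractions. Prdx5 made up 10.1 ± 0.151% of the members' FPKM in MHCII_lo and 15.5 ± 0.345% in MHCII_hi, and Txn1 16.4 ± 0.135% and 20.6 ± 0.0476%. Gpx1 made up 42.8 ± 0.209% and 39.7 ± 0.242%, Prdx1 7.67 ± 0.153% and 5.39 ± 0.155%, and Prdx2 3.77 ± 0.216% and 2.24 ± 0.0235%. Among these 5, Prdx5 and Txn1 took a greater part in every MHCII_hi library than in any MHCII_lo library, and Gpx1, Prdx1 and Prdx2 a smaller one.

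Other genes of the same pathways were followed in 7 lists of 74 genes, of which 65 could be tested. Of these, 26 were higher and 28 lower in MHCII_hi, beside 20.4% and 40.6% of all tested genes, and the median log2 fold change was −0.06 beside −0.12 over all tested genes. After median-ratio scaling 30 were higher and 23 lower, beside 28.2% and 25.9% of all tested genes, with medians of 0.03 and −0.01.

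Among the remaining peroxidases and superoxide dismutases, 4 of 8 could be tested. Prdx4 and Sod1 were lower, and Prdx6 and Gpx3 did not pass the test as deposited, though Gpx3 was called higher in 3 and Prdx6 in 2 of the 4 other scalings. Prdx4, the peroxiredoxin of the endoplasmic reticulum, fell more than any of the 10 members. It held 21.5, 21.1 and 19.6 FPKM in MHCII_lo and 8.30, 10.03 and 8.04 FPKM in MHCII_hi (log2 fold change −1.15, SE 0.0805, adjusted p 2.70e-05). Of the tested peroxiredoxins, Prdx5 alone was therefore called higher as deposited, and Prdx1, Prdx2, Prdx3 and Prdx4 were called lower.

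In the thioredoxin and glutaredoxin list 6 of 15 tested genes were higher and 6 lower, beside 20.4% and 40.6% of all tested genes. Glrx, the cytosolic glutaredoxin that removes glutathione from protein thiols, held 15.9, 15.1 and 14.5 FPKM in MHCII_lo and 35.04, 37.6 and 36.2 FPKM in MHCII_hi (log2 fold change 1.20, SE 0.0436, adjusted p 1.07e-06). Msra, which repairs oxidized methionine, rose from 10.04 ± 0.158 to 20.03 ± 1.08 FPKM. Both were higher in all 3 MHCII_hi libraries than in any MHCII_lo library. The mitochondrial thioredoxin reductase Txnrd2 held 4.89, 4.49 and 4.42 FPKM in MHCII_lo and 3.04, 2.93 and 2.84 FPKM in MHCII_hi. The cytosolic reductase Txnrd1, at 14.01 ± 0.297 and 15.1 ± 0.405 FPKM, was called higher at an adjusted p of 0.0403. That call was lost without any 1 library except MHCII_hi replicate 1 (adjusted p 0.068 to 0.119), under TPM (0.467), without a filter on low values (0.0528), without an intensity trend (0.0521) and with the replicate block (0.074).

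Genes of NADPH and glutathione supply went both ways. In the NADPH list 5 of 9 tested genes were higher and 4 lower, beside 20.4% and 40.6% of all tested genes. G6pdx, the entry enzyme of the pentose phosphate pathway, held 87.7, 82.3 and 86.0 FPKM in MHCII_lo and 189, 191 and 196 FPKM in MHCII_hi (log2 fold change 1.16, SE 0.0285, adjusted p 1.92e-07). Nadk, which makes NADP from NAD, rose from 42.5 ± 0.717 to 70.5 ± 0.786 FPKM, and Pgd, the next NADPH-yielding enzyme of the pathway, from 64.0 ± 0.851 to 93.96 ± 0.844 FPKM. The 4 lower genes were Nnt, Idh1, Idh2 and Me2, enzymes outside the pentose phosphate pathway, of which Nnt, Idh2 and Me2 act in mitochondria. Nnt, the transhydrogenase of the inner mitochondrial membrane, held 15.9, 17.4 and 12.4 FPKM in MHCII_lo and 4.90, 4.22 and 4.78 FPKM in MHCII_hi (log2 fold change −1.52, SE 0.118, adjusted p 4.57e-05). In the glutathione list 5 of 12 tested genes were higher and 6 lower, beside the same shares of all tested genes. Gsr, which recharges glutathione with NADPH, rose from 187 ± 4.67 to 261 ± 3.05 FPKM. Ggt5, a gamma-glutamyl transferase, stood at 0.813 ± 0.129 FPKM in MHCII_lo and 4.67 ± 0.346 FPKM in MHCII_hi. It was under 1 FPKM in all 3 MHCII_lo libraries and passed the filter on low values only through MHCII_hi, so its place among the 5 higher genes is given as a description. Its log2 fold change of 1.65 depended on the pseudocount, at 2.39 with 0.1 and 0.73 with 5. Neutrophil markers rose in the same libraries, and their part in these increases was not tested.

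The remaining lists held higher and lower genes, or lower ones alone. Over all tested genes, 20.4% were called higher and 40.6% lower as deposited. These shares were 28.2% and 25.9% after median-ratio scaling, and 16.9% and 49.8% under TPM. In the list of NRF2, its partners and targets, 6 of 10 were higher and 4 lower, with 4 higher and 4 lower under TPM. Fth1, the ferritin heavy chain, rose from 229 ± 2.77 to 347 ± 2.73 FPKM, while Ftl1, the light chain, fell from 789 ± 21.2 to 633 ± 7.36 FPKM (log2 fold change −0.32, and −0.19 after median-ratio scaling). Both ferritin chains have processed copies in the mouse genome, so their values are uncertain. The next list held FOXO factors, the factors Mlxip, Mlxipl and Mlx, and arrestin relatives of Txnip. Of its tested genes, 4 of 9 were higher and 3 lower, and the lower ones numbered 1 after median-ratio scaling. The arrestin relatives diverged: Arrdc1 went from 17.9 ± 0.480 to 21.8 ± 0.410 FPKM and Arrdc4, which like Txnip responds to glucose, from 3.27 ± 0.147 to 2.25 ± 0.0473 FPKM, both called. Of 6 genes that place selenocysteine, none was higher and 3 were lower, with 1 higher and 2 lower after median-ratio scaling. Their median log2 fold change as deposited was −0.14, close to the −0.12 of all tested genes. Trnau1ap fell from 7.51 ± 0.555 to 5.09 ± 0.428 FPKM and Sepsecs from 3.73 ± 0.0265 to 2.76 ± 0.176 FPKM.

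**Figure D4:**
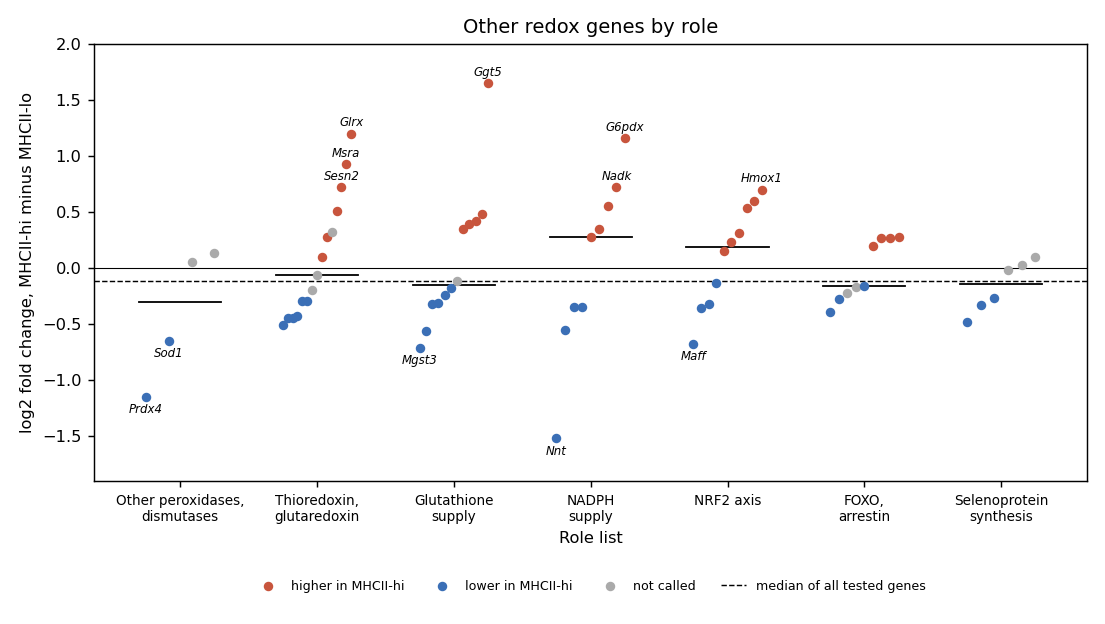
Log2 fold change (MHCII_hi minus MHCII_lo) of the 65 tested genes of 7 role lists, with 1 point per gene coloured by the limma call, a bar at each list's median and a dashed line at the median of all tested genes (−0.12). With the pseudocount of 1 used here Ggt5, Glrx and G6pdx stand highest, at 1.65, 1.20 and 1.16, while with a pseudocount of 5 Ggt5 is at 0.73, below Glrx at 1.03 and G6pdx at 1.13. Nnt and Prdx4 stand lowest, at −1.52 and −1.15.

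For each member, the gene with the most similar profile among 74 others, the tested genes of these lists and the other members, was found by Euclidean distance between mean-centred log2 values over the 6 libraries. Prdx5 lay nearest to Pgd (distance 0.0525, both with a log2 fold change of 0.55), Prdx3 to the iron-sulfur glutaredoxin Glrx3 (0.0546) and Txn1 to Arrdc1 (0.0698). Gpx1 lay nearest to the small Maf factor Mafk (0.0815), Gpx4 to the mitochondrial glutaredoxin Glrx5 (0.0834) and Txnip to Txnrd1 (0.0913). Prdx1 lay nearest to Txnrd2 (0.108), Cat to Idh1 (0.126), Sod2 to Idh2 (0.128) and Prdx2 to Sod1 (0.197). With 2 groups of 3 libraries, these distances mainly compare the size of the difference between fractions.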

How the data were processed

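Sorted cells gave RNA by a micro-scale column kit, and a stranded mRNA kit was used for the libraries, per the labels' protocols. The submitters' processing notes name fastp, HISAT2, StringTie and the build GRCm38 (mm10), without versions. The authors deposited 1 table per library with 30803 rows. The unit of the deposited values was inferred to be FPKM, since StringTie writes FPKM and library sums differ, and no header names it. FPKM are relative values, so a rise in abundant transcripts reduces the values of the rest. Depth is unknown: no whole-read steps were found in low values of single-exon genes (largest mean cosine 0.0668 to 0.0963), so no count model and no counting intervals were used.

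For 70 rows with a repeated symbol, the row with the highest mean was kept. The 12037 genes averaging 1 FPKM or more over the 6 libraries were tested on log2(FPKM + 1). The test was limma 3.58.1 (R 4.3.3; trended prior variance; a model of fraction alone), adjusted by Benjamini-Hochberg across those genes, with calls at 0.05. Ratios were compared by exact permutation of the 6 libraries (20 splits). The 10 members and the lists were chosen with earlier results of these data known. Named genes were all members, per list the 2 genes of lowest p and any called gene with a 2-fold change or more, the class II check genes and the nearest profiles. Msrb1 and the other selenoprotein genes, Klf1, Car2, Hbb-bs, Alas2, Siglech, Gpx3, Prdx6 and the overlapping genes and copies were chosen after their values were seen. Positions come from GENCODE M21 (GRCm38). Copies of a member were found with blastn 2.17.0 (at least 90% identity over at least 50% of the coding sequence). Python 3.11.15, pandas 2.3.3, numpy 2.4.6, scipy 1.17.1 and matplotlib 3.10.9 served for the other steps. Same-numbered libraries did not deviate together, and the labels give no batch. Alternatives were other pseudocounts, filters and scalings, no intensity trend, a replicate block and leaving out each library.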

Additional observations from a re-analysis of the deposited data

How the results depend on the processing

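All 10 members kept their call and direction with a pseudocount of 0.1 or 5, without a filter on low values or at a mean of at least 5 FPKM, without an intensity trend and without any 1 library. The exceptions came with scaling: Gpx1 lost its call in 3 scalings and its sign turned after quantile normalization (log2 fold change 0.0039, adjusted p 0.856), and Txnip lost its call under TPM. Over all tested genes, 4883 were called lower as deposited, and 3123 after median-ratio scaling and 3156 with neutrophil markers left out of the total. With these 2 scalings the balance of calls thus turned from mostly lower to slightly more higher (3392 and 3355 higher, 2450 as deposited), and the cause was not tested. The members' share of summed FPKM fell by 0.0299 percentage points and turned to 0.0144 higher with neutrophil markers left out. The difference in the log2 ratio of Sod2 to Sod1 moved from 0.11 to 0.19 with a pseudocount of 1. Same-numbered libraries correlated at −0.053 to −0.043 in their deviations, below other pairs, and no library correlated best with its own number. Such weak correlations cannot show whether same-numbered libraries came from the same animals, since shared animals need not give shared deviations. With the replicate block all 10 members, 51 of the other redox genes (54 without it) and 6964 of all genes (7333 without it) were called, and the ratios and the share had an exact sign-flip p of 0.25, the smallest possible. Without single libraries, 49 to 53 other redox genes and 6607 to 6751 of all genes were called. The pseudocounts of 0.1 and 5 gave 7301 and 7354 calls over all genes, and leaving out the intensity trend gave 7325. These totals lie close to 7333, so the members' steady calls under these settings do not set them apart. Unfiltered, with more genes tested, 7368 were called, and the stricter filter, with fewer tested, left 5275. The FPKM tables carry no depth, so the counting error of low genes such as Sod2 is unknown.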

Other observations

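With Gpx1 and Gpx4 included, GENCODE M21 annotates a selenocysteine codon in 24 genes, of which 20 were tested here. This set was chosen after values were seen. Of the 20, 4 were higher in MHCII_hi, 7 lower and 9 did not pass limma at an adjusted p of 0.05, beside 20.4% higher and 40.6% lower over all tested genes, and the median log2 fold change was −0.08 beside −0.12. Selenon, a protein of the endoplasmic reticulum linked to calcium handling, rose from 13.2 ± 0.578 to 29.6 ± 0.821 FPKM (SD, n = 3; log2 fold change 1.11, limma adjusted p 1.18e-06). Msrb1, which repairs oxidized methionine, rose from 133 ± 1.85 to 189 ± 5.81 FPKM (log2 fold change 0.51, limma adjusted p 6.59e-06). Selenow fell from 34.4 ± 2.40 to 20.01 ± 1.38 FPKM (log2 fold change −0.75, limma adjusted p 7.69e-05) and Selenoh, a nuclear selenoprotein, from 46.7 ± 3.49 to 30.7 ± 1.72 FPKM.

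Nnt was listed in 2 rows. The row with the lower mean stood at 2.59 ± 1.39 FPKM in MHCII_lo and 2.22 ± 0.133 FPKM in MHCII_hi, and within MHCII_lo the library with the highest value in that row, replicate 3 at 4.18 FPKM, had the lowest value in the other row, 12.4 FPKM. The sum of both rows was 17.9 ± 1.23 FPKM in MHCII_lo and 6.86 ± 0.287 FPKM in MHCII_hi.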
